A study of Mus musculus with 6 samples.

Results

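The genes described are those of the TGF-beta and BMP signalling pathways, taken as a list of 50 symbols and kept where the deposited expression table has a row of that name. The table holds 13069 genes, and 46 of the 50 symbols were found: 12 ligands, 4 latent TGF-beta binding proteins, 4 antagonists, 10 receptors, 8 SMADs, 4 intracellular regulators and 4 target genes. The ligand Bmp4, the receptor Bmpr1b and the antagonists Nog and Fstl3 have no row and are not described further. The libraries came from cultures labelled as mouse glioblastoma neurospheres, 3 with the genotype ATRX knockout (ATRX KO, line code C54B) and 3 with ATRX wild type (ATRX WT, line code C39E). Both lines were grown from tumours raised in neonatal C57BL/6 or FVB mice with Sleeping Beauty plasmids for NRAS and for a short hairpin against p53, so these 2 changes are shared. The labels call the C54B genotype a knockout, while their protocol has a plasmid with a short hairpin against ATRX added in some tumours, so how ATRX was lost in this line is not known. Age at harvest and the strain of each line are not given, and the culture medium of both was one for neural stem cells, supplemented with FGF, EGF, B-27 and N-2. Each genotype is 1 line code, so the effect of ATRX and the difference between lines cannot be told apart.

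TGF-beta ligands, activins and BMPs are secreted dimers that bring together type I and type II receptor kinases at the cell surface. TGF-beta and activin receptors phosphorylate Smad2 and Smad3, BMP receptors phosphorylate Smad1, Smad5 and Smad9, and both groups enter the nucleus with Smad4 to regulate transcription. In glioma, TGF-beta is known for roles in invasion and immune suppression, and BMPs for driving stem-like cells toward astroglial differentiation.

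Summed over the table, the ATRX KO libraries held between 22177228 and 32477269 reads and the ATRX WT libraries between 34966108 and 38039847. Atrx, the targeted chromatin remodeller, stood at 14.1, 16.6 and 17.1 RPKM (reads scaled to gene length and library size) in ATRX KO and at 22.3, 22.7 and 21.6 RPKM in ATRX WT, a fall of 0.48 on the log2 scale, with 71.9% of the ATRX WT level remaining in ATRX KO. Against the neural stem cell culture that the labels name, neural stem cell markers were low in ATRX KO. Those markers, 6 of 7 with a row, summed to 47.6 to 49.4 RPKM in ATRX KO and 2901 to 2964 RPKM in ATRX WT. Mesenchymal and fibroblast markers, 10 of 10 with a row, summed to 1355 to 1510 RPKM in ATRX KO and 190 to 196 RPKM in ATRX WT. Neuronal and neuroblast markers, 9 of 10 with a row, summed to 13.8 to 15.3 RPKM in ATRX KO and 225 to 234 RPKM in ATRX WT, and oligodendrocyte precursor markers, 6 of 8, to 40.9 to 44.5 RPKM in ATRX KO and 354 to 361 RPKM in ATRX WT. Astrocyte markers, 5 of 8, summed to 172 to 178 RPKM in ATRX KO and 377 to 383 RPKM in ATRX WT. Dcx, Olig1, Bcas1 and Mlc1 had 0 reads in every ATRX KO library, and no marker in the table had 0 reads in every ATRX WT library. Not every marker followed its list's sum: of those with a row, 7 mesenchymal markers rose and 1 fell, 2 oligodendrocyte precursor markers rose and 4 fell, and 1 astrocyte marker rose and 4 fell, whereas 6 neural stem cell and 8 neuronal markers fell and none rose. Endothelial markers, 4 of 7, summed to 14.6 to 16.6 RPKM in ATRX KO and 2.15 to 2.67 RPKM in ATRX WT, and pericyte markers, 4 of 6, to 50.6 to 54.2 RPKM in ATRX KO and 23.8 to 24 RPKM in ATRX WT. These lists were mixed too, as 2 endothelial markers rose and 1 fell, and 3 pericyte markers rose and 1 fell. Of 8 microglia and macrophage markers only Tmem119 and Cd68 had a row. These 2 summed to 30.6 to 35.1 RPKM in ATRX KO and 5.6 to 6.36 RPKM in ATRX WT. Cx3cr1, P2ry12, Aif1, Csf1r, Ptprc and Adgre1 had no row, so the sum does not describe the list. Ependymal markers, 3 of 4, summed to 0.909 to 1.05 RPKM in ATRX KO and 9.69 to 10.2 RPKM in ATRX WT, and proliferation markers, 4 of 4, to 230 to 236 RPKM in ATRX KO and 338 to 345 RPKM in ATRX WT. In bulk RNA fewer cells of a type and less RNA per cell cannot be told apart, and the part of these cell type markers in the results that follow was not tested.

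Most pathway genes differed between the lines, as most genes did. A gene was tested when its log2 RPKM reached 0 in at least 3 of the 6 libraries, and "rose" and "fell" stand for a higher or lower level in ATRX KO with an adjusted p under 0.05 in limma. Of the 41 members tested, 27 rose, 10 fell and 4 gave no call. That is 90.2%, against 89.5% of all 12201 genes tested, so the share called is near the background. Over all tested genes 43.6% rose and 45.9% fell. The libraries of the 2 genotypes did not overlap for 39 of the 41 members, where 90.5% of all tested genes were like that. Without the filter 30 of the 46 members rose and 12 fell, beside 42.5% and 47% of all 13069 genes. The median log2 fold change (ATRX KO minus ATRX WT) was 0.93 for the tested members and -0.02 for all tested genes. When a difference beyond log2 1 was asked for (limma's treat test), 16 members rose and 5 fell, 51.2% together against 32.6% of all tested genes. Split by direction, 39% of the tested members rose by that rule, where 15.4% of all tested genes did, and 12.2% fell, where 17.2% of all tested genes did. The filter shaped these counts. Bmp2, Bmp5, Ltbp2, Grem1, Tgfbr3, Eng, Smad7 and Tgfbi had a mean log2 RPKM of 0 or more in ATRX KO and not in ATRX WT, and Inhbb and Fst in ATRX WT and not in ATRX KO, so these 10 had to differ once they passed. Among the 31 members that reached it in both genotypes, 19 rose and 8 fell, 87.1% together against 87.7% of the 10312 such genes of the whole table, of which 45.3% rose and 42.4% fell. The median was 0.50 for these members and 0.02 for these genes. The 10 members named above were all called by the treat test too, and that test was not counted apart for the 31. Of the 31, 11 had a log2 fold change of 1 or more and 3 of -1 or less. Of the 10312 genes, 1486 and 1203 did.

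**Figure D1:**
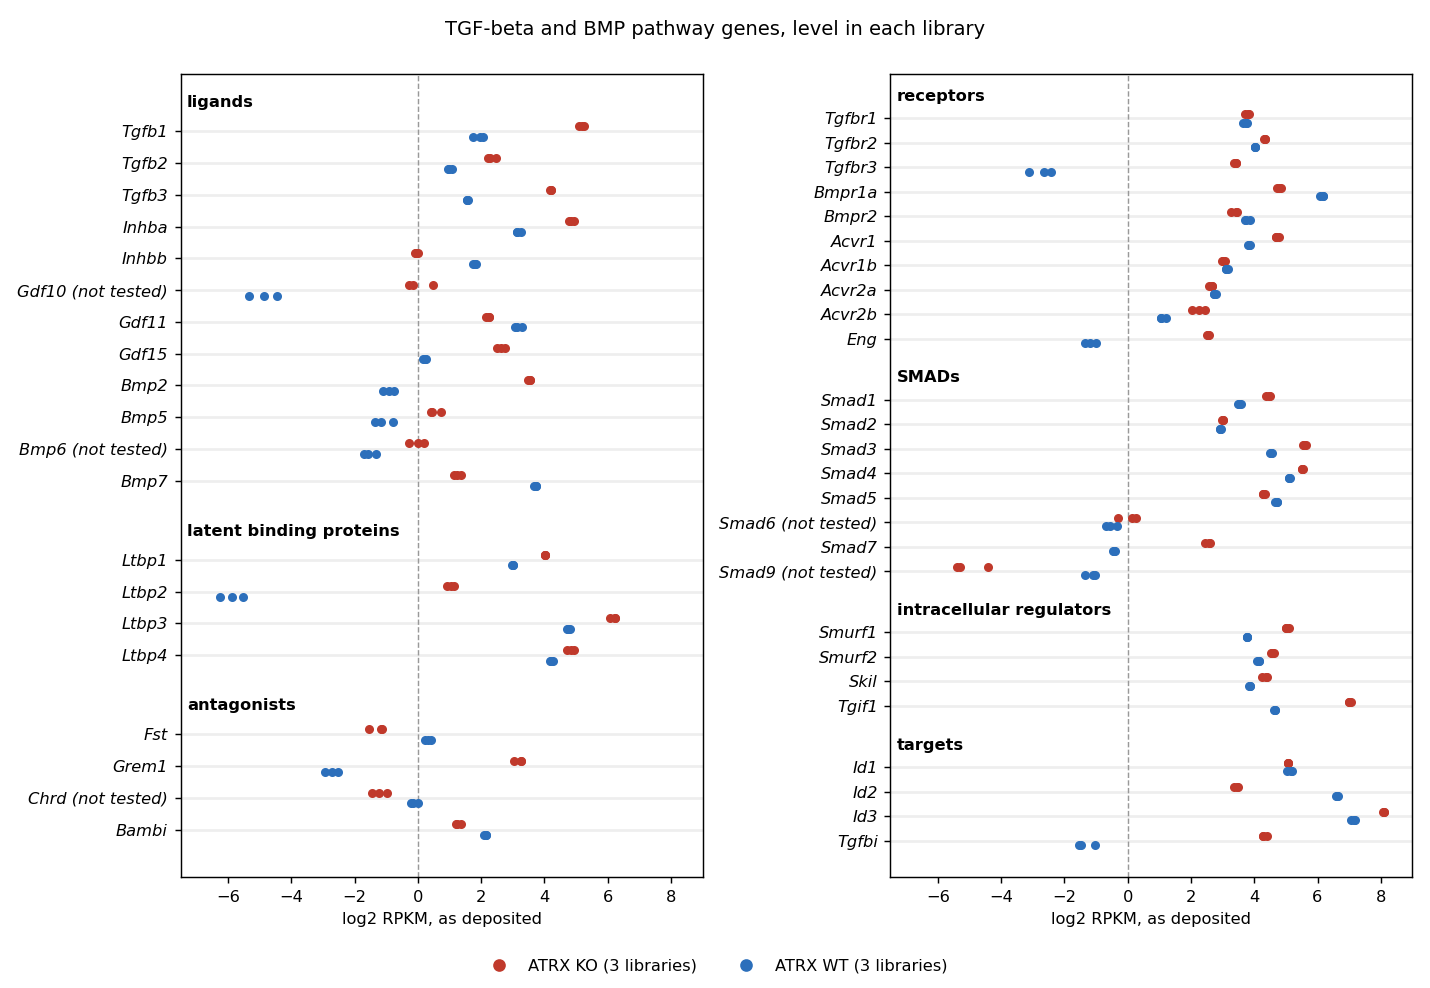
Level of each of the 46 pathway genes in each library, as deposited log2 RPKM, with ATRX KO libraries in red above ATRX WT libraries in blue and 1 point per library; the dashed line marks the level used in the filter. Replicates lie close together for most genes. Ltbp2, Grem1, Tgfbr3 and Tgfbi stand more than 5 log2 units higher in ATRX KO. Id2 stands 3.19 lower, and Smad9, which was not tested, stands 3.86 lower on 8 reads over the ATRX KO libraries.

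All 3 TGF-beta ligands were higher in ATRX KO, where 43.6% of all tested genes rose. Tgfb1 (ENSMUSG00000002603.15, chromosome 7, 25687002 to 25705077, GRCm38), the main isoform in most tissues, measured 38.3, 34.3 and 36.2 RPKM in ATRX KO and 4.17, 3.87 and 3.35 RPKM in ATRX WT, given for replicates 1 to 3 here and throughout. The lowest ATRX KO library was far above the highest ATRX WT library, and the gene's log2 level rose by 3.26 (SE 0.0792, limma adjusted p = 8.4e-10). Tgfb3, which acts in palate development, had 18.4, 18.6 and 18.1 RPKM in ATRX KO and 2.99, 2.96 and 2.98 RPKM in ATRX WT, a rise of 2.63 (SE 0.041). Tgfb2, the isoform that depends most on a co-receptor, had 4.65, 5.55 and 4.9 RPKM in ATRX KO and 2.1, 1.99 and 1.92 RPKM in ATRX WT, a rise of 1.33 (SE 0.0808). For both genes the groups were apart in every library. Summed over the 3 isoforms, the level was 59.6 ± 1.5 RPKM in ATRX KO and 8.78 ± 0.501 RPKM in ATRX WT (SD, n = 3 each). Tgfb1 made up 60.7% ± 1.92 of the sum in ATRX KO and 43.2% ± 2.29 in ATRX WT, and Tgfb2 8.45% ± 0.965 in ATRX KO and 22.8% ± 0.406 in ATRX WT, so the make-up changed along with the sum.

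The BMP ligands exchanged places. Bmp2 (chromosome 2, 133552159 to 133562885), an inducer of bone and of astroglial fate, measured 11.1, 11.8 and 11.8 RPKM in ATRX KO. In ATRX WT it measured 0.466, 0.597 and 0.534 RPKM, and it rose by 4.45 (SE 0.0967, limma adjusted p = 4.4e-10). The rise was 3.04 on the log2(RPKM + 1) scale and 5.33 with quantile normalization. Bmp7 (chromosome 2, 172868012 to 172940321), which acts in kidney, eye and forebrain development, measured 2.39, 2.21 and 2.6 RPKM in ATRX KO and 12.7, 13.4 and 13.3 RPKM in ATRX WT. Its log2 level fell by 2.46 (SE 0.0677, limma adjusted p = 1.8e-09), and no library of 1 genotype reached the range of the other for either gene. Bmp5, a ligand close to Bmp7 in sequence, averaged 1.46 ± 0.179 RPKM in ATRX KO and 0.475 ± 0.0975 RPKM in ATRX WT, a rise of 1.63. The size of that rise depended on the scale, at 0.74 on log2(RPKM + 1) and 2.89 with quantile normalization. Bmp6 did not pass the filter and stood at 0.996 ± 0.163 RPKM in ATRX KO and 0.349 ± 0.0492 RPKM in ATRX WT. The 4 BMP ligands with a row summed to 15.9, 16.5 and 16.9 RPKM in ATRX KO. In ATRX WT they summed to 13.9, 14.8 and 14.7 RPKM, so the sums lay close while their make-up differed. Both sums use the authors' library sizes and were not rescaled. Bmp2 was 70.4% ± 0.899 of the sum in ATRX KO and 3.66% ± 0.342 in ATRX WT, and Bmp7 was 14.6% ± 1.05 in ATRX KO and 90.7% ± 0.354 in ATRX WT.

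The activin subunits and the growth differentiation factors split as well. Inhba, the beta A subunit that forms activin A, measured 27.3, 30.5 and 28.9 RPKM in ATRX KO and 9.52, 8.88 and 8.85 RPKM in ATRX WT, a rise of 1.67 (SE 0.0503). Inhbb, the beta B subunit, measured 0.939, 1 and 0.955 RPKM in ATRX KO and 3.52, 3.56 and 3.34 RPKM in ATRX WT and fell by 1.85 (SE 0.0733), or by 1.19 on the log2(RPKM + 1) scale. Neither gene's groups overlapped, and the ratio of Inhba to Inhbb was 29.9 ± 0.771 in ATRX KO and 2.62 ± 0.111 in ATRX WT. Gdf15, a stress-responsive cytokine, measured 6.73, 5.66 and 6.15 RPKM in ATRX KO and 1.16, 1.19 and 1.13 RPKM in ATRX WT, a rise of 2.41 (SE 0.0795). Gdf11, a relative of myostatin that signals through activin receptors, averaged 4.63 ± 0.161 RPKM in ATRX KO and 9 ± 0.703 RPKM in ATRX WT and fell by 0.96. Gdf10, also called BMP3B, did not pass the filter and rested on few reads, 197 over the ATRX KO libraries and 3 over the ATRX WT libraries. Reads per unit of library size, summed over libraries, were 100 times as many in ATRX KO as in ATRX WT, with an exact 95% interval of 33.8 to 490 that covers counting error only. By mean level the ligands of ATRX KO ran from Tgfb1 (36.2 RPKM) through Inhba (28.9), Tgfb3 (18.4) and Bmp2 (11.6) downward. In ATRX WT the order began with Bmp7 (13.1 RPKM), Inhba (9.08 ± 0.38) and Gdf11 (9 ± 0.703), and Inhba and Gdf11 did not differ beyond their spread.

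Latent binding proteins tether newly made TGF-beta to the matrix until it is activated. All 4 rose, where 43.6% of all tested genes did. Ltbp3, which is secreted with latent TGF-beta, measured 75.3, 67.8 and 74.6 RPKM in ATRX KO and 27, 26.2 and 27.9 RPKM in ATRX WT, a rise of 1.42 (SE 0.0452). Ltbp1, the founding member of the family, measured 16.3, 16.2 and 16.3 RPKM in ATRX KO and 7.83, 8.14 and 8.05 RPKM in ATRX WT, a rise of 1.02 (SE 0.0355). Every ATRX KO library lay above every ATRX WT library for both. Ltbp4, which binds mainly Tgfb1, averaged 28.6 ± 2.3 RPKM in ATRX KO and 18.6 ± 0.695 RPKM in ATRX WT and rose by 0.62. Ltbp2, a microfibril protein that does not bind latent TGF-beta, measured 1.89, 2.06 and 2.22 RPKM in ATRX KO and 0.0214, 0.0131 and 0.017 RPKM in ATRX WT. It rose by 6.93 (SE 0.211), the largest fitted rise among the tested members, on 1034 reads over the ATRX KO libraries and 6 over the ATRX WT libraries. By reads per unit of library size the ratio of ATRX KO to ATRX WT was 263 (exact 95% interval 120 to 718). On the log2(RPKM + 1) scale, which damps low levels, its difference was 1.59.

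The antagonists did not move together. Grem1, a secreted trap for Bmp2, Bmp4 and Bmp7 that is known from fibroblasts, measured 8.24, 9.52 and 9.6 RPKM in ATRX KO and 0.151, 0.173 and 0.13 RPKM in ATRX WT. It was low in all 3 ATRX WT libraries, with 22 reads over them, and rose by 5.92 in ATRX KO (SE 0.125, limma adjusted p = 3.8e-10), or by 3.13 on the log2(RPKM + 1) scale. Fst, which binds and neutralises activin, averaged 0.417 ± 0.0651 RPKM in ATRX KO and 1.26 ± 0.0849 RPKM in ATRX WT and fell by 1.60, or by 0.67 on the log2(RPKM + 1) scale and 0.61 with quantile normalization. Bambi, a membrane pseudoreceptor without a kinase domain, averaged 2.42 ± 0.131 RPKM in ATRX KO and 4.38 ± 0.129 RPKM in ATRX WT and fell by 0.85, or by 0.53 with quantile normalization. Chrd, a BMP trap, was not tested and averaged 0.435 ± 0.0723 RPKM in ATRX KO and 0.922 ± 0.0724 RPKM in ATRX WT. The ratio of Inhba to its antagonist Fst was 60.7, 89.2 and 62.9 in ATRX KO and 7.08, 7.56 and 7.05 in ATRX WT, with more spread in ATRX KO.

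The signalling receptors of TGF-beta differed little, and the co-receptors differed most. Tgfbr3 (betaglycan), the co-receptor that presents Tgfb2, measured 10.8, 10.3 and 10.7 RPKM in ATRX KO and 0.116, 0.161 and 0.185 RPKM in ATRX WT, a rise of 6.13 (SE 0.161, limma adjusted p = 1.3e-09). Eng (endoglin), a co-receptor of endothelial and mesenchymal cells, measured 5.95, 5.75 and 5.83 RPKM in ATRX KO and 0.39, 0.5 and 0.441 RPKM in ATRX WT, a rise of 3.73 (SE 0.102). On the log2(RPKM + 1) scale the rises were 3.33 for Tgfbr3 and 2.25 for Eng, and both genes were near the bottom of the table's range in ATRX WT. Tgfbr1, the type I kinase for TGF-beta, measured 13.8 ± 0.582 RPKM in ATRX KO and 13.1 ± 0.545 RPKM in ATRX WT, its groups overlapped, and it gave no call (limma adjusted p = 0.14). Without ATRX KO replicate 1 it was higher by 0.11 (limma adjusted p = 0.046). Scaled by the reads in the table, and not by the authors' library sizes, its log2 difference was -0.12 (limma adjusted p = 0.041, with a range of 0.041 to 0.55 over all settings). Tgfbr2, the type II kinase, rose by 0.30, with 20 ± 0.272 RPKM in ATRX KO and 16.2 ± 0.156 RPKM in ATRX WT, or by 0.20 with quantile normalization and by 0.11 when scaled by the reads in the table.

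Of the BMP and activin receptors, Bmpr1a changed most. Bmpr1a (chromosome 14, 34410734 to 34503341), a type I receptor for Bmp2 and Bmp4, measured 26.4, 27.6 and 28.7 RPKM in ATRX KO and 72, 72 and 67.8 RPKM in ATRX WT, a fall of 1.36 in log2 (SE 0.0392, limma adjusted p = 2.4e-09). Acvr1, the type I receptor that favours Bmp6 and Bmp7, averaged 26.5 ± 0.876 RPKM in ATRX KO and 14.3 ± 0.328 RPKM in ATRX WT and rose by 0.89. The 2 genes were therefore near level in ATRX KO, with a ratio of Acvr1 to Bmpr1a of 0.961 ± 0.0461, against 0.203 ± 0.00557 in ATRX WT. Bmpr2, the BMP type II receptor, fell by 0.39, or by 0.59 when scaled by the reads in the table, with 10.5 ± 0.658 RPKM in ATRX KO and 13.7 ± 0.822 RPKM in ATRX WT. The activin type II receptor Acvr2b measured 5.44, 4.12 and 4.8 RPKM in ATRX KO and 2.07, 2.08 and 2.29 RPKM in ATRX WT, a rise of 1.15 (SE 0.103). Its relative Acvr2a stood at 6.24 ± 0.211 RPKM in ATRX KO and 6.74 ± 0.199 RPKM in ATRX WT and gave no call (limma adjusted p = 0.06), although its groups did not overlap. Acvr1b, the activin type I receptor, stood at 8.08 ± 0.207 RPKM in ATRX KO and 8.73 ± 0.188 RPKM in ATRX WT and fell by 0.11 (limma adjusted p = 0.034). That call was lost in 7 of 13 alternatives, among them leaving out ATRX KO replicate 1 or 3 or any 1 ATRX WT library (limma adjusted p from 1.2e-04 to 0.13 and log2 difference from -0.31 to -0.07 over all settings).

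**Figure D2:**
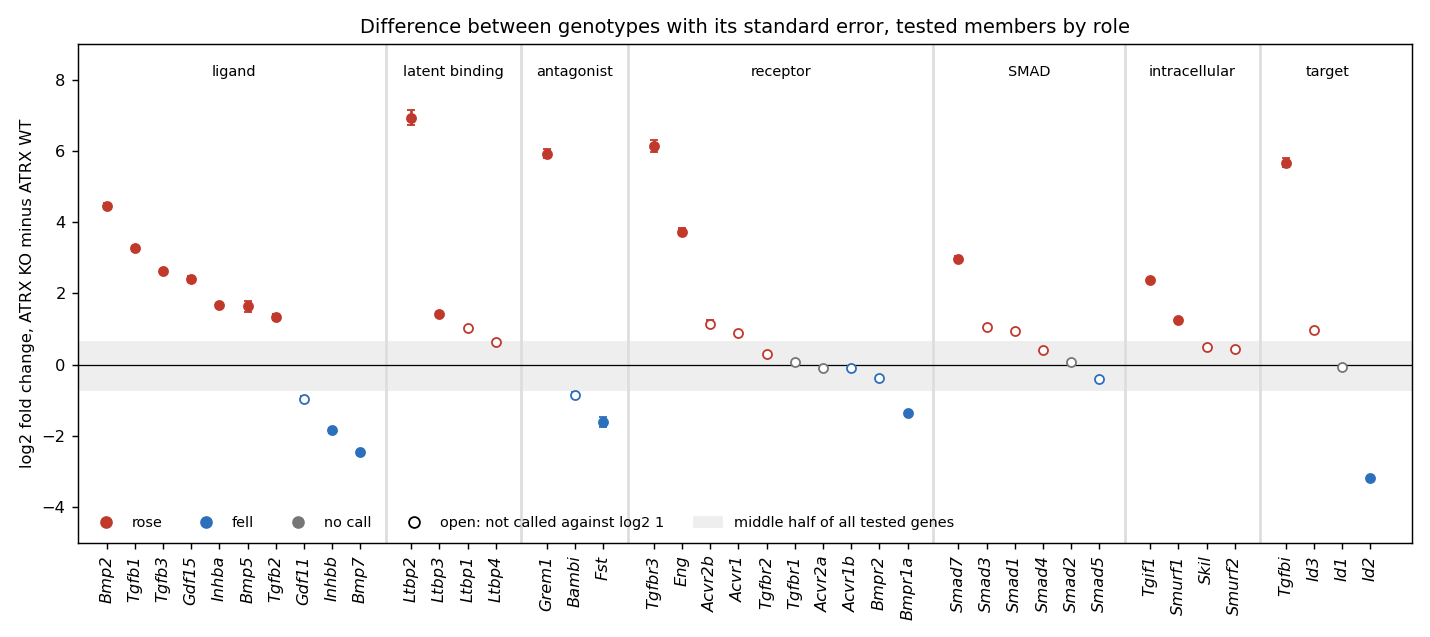
Log2 fold change, ATRX KO minus ATRX WT, of the 41 tested members by role, with the standard error as bars (often smaller than the point) and the interquartile range of all tested genes, -0.72 to 0.64, as a grey band. Red points rose, blue points fell, grey points gave no call, and open points were not called against a difference of log2 1; all 4 latent binding proteins and all 4 intracellular regulators lie above 0, and most receptors and SMADs are open.

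Of the 6 SMADs that were tested, the inhibitory Smad7 differed most. Smad7, which blocks type I receptors and is itself induced by the pathway, measured 5.89, 5.44 and 6.09 RPKM in ATRX KO and 0.722, 0.74 and 0.758 RPKM in ATRX WT. It rose by 2.97 (SE 0.0745, limma adjusted p = 1.0e-09), or by 1.97 on the log2(RPKM + 1) scale, with every ATRX KO library above every ATRX WT library. Smad3 (chromosome 9, 63646767 to 63757994), a receptor SMAD of TGF-beta and activin, measured 46.6, 49.6 and 47.9 RPKM in ATRX KO and 23.1, 22.6 and 23.5 RPKM in ATRX WT, a rise of 1.06 (SE 0.0327). Its partner Smad2 measured 8.03, 7.85 and 8.07 RPKM in ATRX KO and 7.72, 7.52 and 7.6 RPKM in ATRX WT and gave no call (limma adjusted p = 0.14). With quantile normalization Smad2 was higher by 0.13 (limma adjusted p = 0.015), and scaled by the reads in the table its difference was -0.13 (limma adjusted p = 0.016, with a range of 0.015 to 0.29 over all settings). The ratio of Smad3 to Smad2, in which library size cancels, was 6.02 ± 0.268 in ATRX KO and 3.03 ± 0.0543 in ATRX WT.

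In the BMP branch Smad1 and Smad5 moved apart. Smad1 measured 22.4, 20.7 and 22.4 RPKM in ATRX KO and 11.2, 11.9 and 11.4 RPKM in ATRX WT and rose by 0.93 (SE 0.0443). Smad5 measured 19.3, 19.4 and 20.2 RPKM in ATRX KO and 25.2, 26.3 and 26.1 RPKM in ATRX WT and fell by 0.40 (SE 0.0335). Their ratio, Smad1 over Smad5, was 1.11 ± 0.046 in ATRX KO and 0.444 ± 0.00809 in ATRX WT. Smad9, the third receptor SMAD of BMPs, did not pass the filter and measured 0.0237, 0.0256 and 0.0473 RPKM in ATRX KO and 0.487, 0.391 and 0.466 RPKM in ATRX WT, on 8 reads over the ATRX KO libraries and 276 over the ATRX WT libraries. Summed over these 3 genes the level was 41.5 ± 1.32 RPKM in ATRX KO and 37.8 ± 0.857 RPKM in ATRX WT. Smad2 and Smad3 summed to 56 ± 1.44 RPKM in ATRX KO and 30.7 ± 0.486 RPKM in ATRX WT. These sums were not rescaled by the reads in the table, a scaling that moved the median of all genes by -0.20. The common partner Smad4 measured 45.4, 45.5 and 46.2 RPKM in ATRX KO and 34.5, 35.2 and 34.1 RPKM in ATRX WT and rose by 0.40 (SE 0.0263), or by 0.26 with quantile normalization and by 0.20 when scaled by the reads in the table. Smad6, the inhibitory SMAD of the BMP branch, was not tested and measured 1.19, 0.805 and 1.09 RPKM in ATRX KO and 0.783, 0.684 and 0.615 RPKM in ATRX WT, with a narrow gap between the groups.

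The 4 intracellular regulators rose, where 43.6% of all tested genes did. Of the 24 other intracellular regulators tested, described below, 9 rose and 10 fell. Tgif1 (chromosome 17, 70844205 to 70853546), a homeodomain repressor that binds Smad2 and recruits deacetylases, measured 132, 128 and 129 RPKM in ATRX KO and 25.2, 25.2 and 24.6 RPKM in ATRX WT, a rise of 2.38 (SE 0.026, limma adjusted p = 1.3e-11). It had the narrowest standard error of all tested members and stood behind only Id3 in mean level in ATRX KO. Smurf1, a ubiquitin ligase for BMP SMADs and receptors, measured 34.4, 31.8 and 31.8 RPKM in ATRX KO and 13.6 RPKM in each ATRX WT library, a rise of 1.26 (SE 0.0383). Its relative Smurf2 rose by 0.43, with 23.7 ± 0.67 RPKM in ATRX KO and 17.5 ± 0.395 RPKM in ATRX WT. Skil (SnoN), a repressor of SMAD target genes, rose by 0.50, with 20.4 ± 1.1 RPKM in ATRX KO and 14.4 ± 0.224 RPKM in ATRX WT. Scaled by the reads in the table, the rises of Smurf2 and Skil were 0.24 and 0.31, both still called. Their rises of 0.43 and 0.50 lay within the interquartile range of all tested genes, -0.72 to 0.64.

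The target genes showed the widest split, and the promoters of 3 of them are printed because their levels went apart. Each is the RefSeq window from 250 bases before to 50 bases after the gene's start (GRCm38.p6), 5′ to 3′ on the gene's own strand. Capitals mark GTCT or its reverse complement AGAC, the core letters of the SMAD-binding element, and GGCGCC, a GC-rich sequence of BMP-responsive promoters that reads the same on both strands. Windows lie at chr12:25096043-25096342 (minus strand) for Id2, chr4:136143572-136143871 (plus strand) for Id3 and chr13:56609336-56609635 (plus strand) for Tgfbi.
Id2: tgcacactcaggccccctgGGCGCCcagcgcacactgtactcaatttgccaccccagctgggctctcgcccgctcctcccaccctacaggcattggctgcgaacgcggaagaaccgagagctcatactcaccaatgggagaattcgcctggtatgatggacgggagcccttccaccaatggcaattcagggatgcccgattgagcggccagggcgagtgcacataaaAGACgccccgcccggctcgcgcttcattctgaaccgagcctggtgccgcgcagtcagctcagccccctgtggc
Id3: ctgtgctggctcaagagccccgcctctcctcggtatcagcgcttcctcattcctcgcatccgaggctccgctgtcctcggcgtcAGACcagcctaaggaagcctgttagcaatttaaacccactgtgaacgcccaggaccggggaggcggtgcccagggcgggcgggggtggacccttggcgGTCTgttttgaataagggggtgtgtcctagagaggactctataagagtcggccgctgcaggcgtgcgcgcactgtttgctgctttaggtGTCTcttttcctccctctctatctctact
Tgfbi: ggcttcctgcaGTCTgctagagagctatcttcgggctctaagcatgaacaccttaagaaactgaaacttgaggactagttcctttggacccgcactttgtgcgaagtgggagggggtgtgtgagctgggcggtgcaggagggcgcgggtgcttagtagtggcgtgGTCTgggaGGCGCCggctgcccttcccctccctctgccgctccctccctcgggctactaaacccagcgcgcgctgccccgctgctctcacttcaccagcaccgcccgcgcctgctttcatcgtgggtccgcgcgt
The marked words cannot overlap each other. The joined element GTCTAGAC, which contains both core words, was searched as well and occurs in none of the 3 windows. Id2 and Tgfbi hold 1 GGCGCC each and Id3 none, while GTCT or AGAC occurs once in Id2, 3 times in Id3 and 2 times in Tgfbi. Of all 32851 promoter windows held by RefSeq's set, 11.9% hold GGCGCC, 88% hold GTCT or AGAC and 0.213% hold GTCTAGAC, on either strand. Of the 46 members with a row, 35 have a window there. Of these 35, 13 hold GGCGCC, 32 hold GTCT or AGAC, and 1, Smad6, holds GTCTAGAC, each in at least 1 window. Members are counted per gene and the shares above per window. A gene with more than 1 window has more chances to match, so these counts cannot be set against those shares. A match is a description of the letters and not of binding.

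Id1, Id2 and Id3 encode helix-loop-helix proteins without a DNA-binding region, which hold back differentiation factors and are classic BMP targets. Id2 (ENSMUSG00000020644.9) measured 11.2, 10.9 and 10.2 RPKM in ATRX KO and 101, 95.8 and 96.7 RPKM in ATRX WT. Its log2 level fell by 3.19 (SE 0.0408, limma adjusted p = 2.6e-11), the largest fall among the tested members, with all ATRX KO libraries far below the others. Id3 (ENSMUSG00000007872.3) measured 268, 274 and 277 RPKM in ATRX KO and 141, 133 and 145 RPKM in ATRX WT, a rise of 0.97 (SE 0.0366), and was the highest of the 46 genes in both genotypes. Id1 measured 33.3, 33.9 and 33.3 RPKM in ATRX KO and 35.7, 32.7 and 36.2 RPKM in ATRX WT, its groups overlapped, and it gave no call (limma adjusted p = 0.21). Its log2 difference was -0.10 without ATRX WT replicate 2 (limma adjusted p = 0.018, with a range of 3.5e-04 to 0.55 over all settings), -0.17 with quantile normalization and -0.25 when scaled by the reads in the table, all 3 past the threshold. Summed over the 3 genes the level was 317 ± 4.28 RPKM in ATRX KO and 272 ± 9.59 RPKM in ATRX WT. The sum was not rescaled by the reads in the table, which moved the median of all genes by -0.20. Id2 made up 3.39% ± 0.203 of that sum in ATRX KO and 35.9% ± 0.978 in ATRX WT, and Id3 86% ± 0.341 in ATRX KO and 51.3% ± 0.765 in ATRX WT. Tgfbi, a secreted matrix protein named for its induction by TGF-beta, measured 19.6, 21.3 and 19.3 RPKM in ATRX KO. In ATRX WT it measured 0.361, 0.345 and 0.494 RPKM, on 119 reads over the libraries. It rose by 5.67 (SE 0.131, limma adjusted p = 6.4e-10), with a range of 3.91 to 6.68 over all settings.

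**Figure D3:**
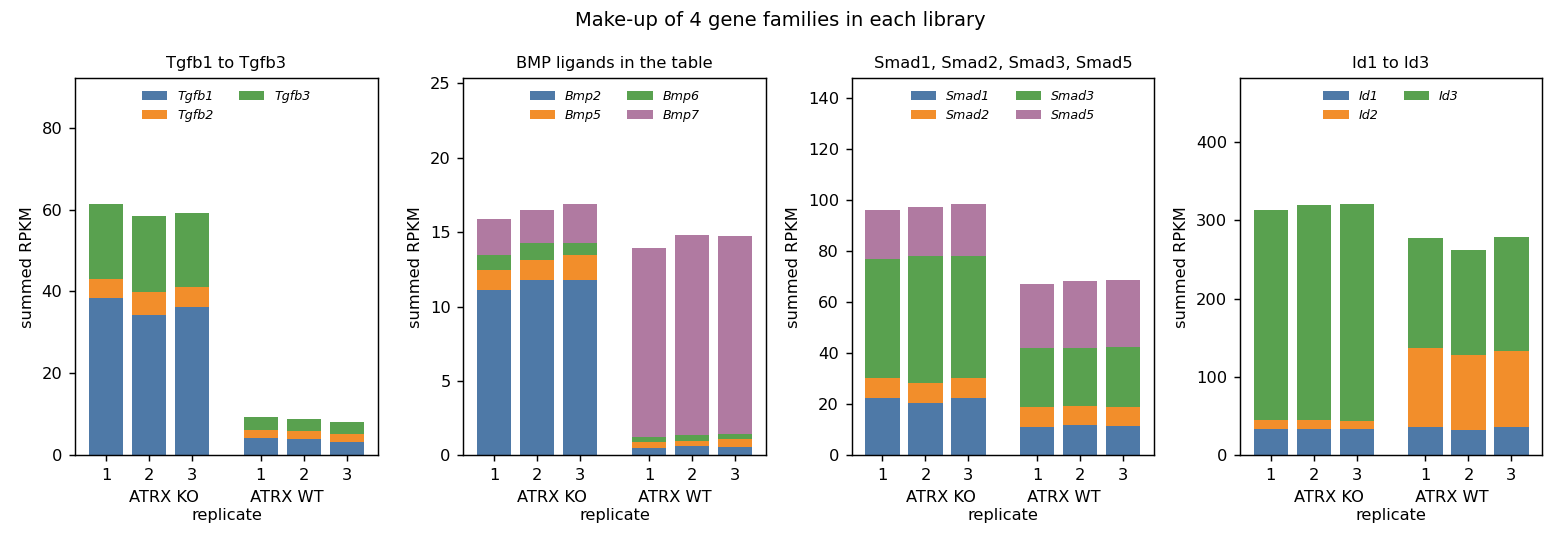
Stacked RPKM of Tgfb1 to Tgfb3, of the 4 BMP ligands in the table, of 4 receptor SMADs and of Id1 to Id3, with 1 bar per library, ATRX KO at the left and ATRX WT at the right of each panel. The TGF-beta sum is 59.6 RPKM in ATRX KO against 8.78 in ATRX WT, while the BMP ligand sums lie close and are mostly Bmp2 in ATRX KO and mostly Bmp7 in ATRX WT, and Id2 nearly leaves the Id sum in ATRX KO.

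Each tested member was also set beside the genes around it on its chromosome. The neighbours were tested genes outside the list within 5 Mb on either side at a mean level of log2 RPKM 3 or more, and their number ran from 8 to 126. Of the 41 tested members, 32 lay outside the interquartile range of their neighbours' log2 fold changes and 9 lay within it, namely Tgfbr1, Tgfbr2, Bmpr2, Acvr1b, Acvr2a, Smad2, Smurf2, Id1 and Id3. Such a range leaves many genes outside by construction, and no like count was made over all tested genes. The level limit was set on neighbours and not on members, so these counts have no baseline and are description only. Id3, on distal chromosome 4, had 72 neighbours with a median log2 fold change of 0.83 and quartiles of 0.15 and 1.40, so its own 0.97 was like theirs. Tgfbr1, at another place on chromosome 4, had a neighbour median of 0.45 and a value of 0.08 of its own. For every tested member other than Id3 the neighbour median lay between -0.43 and 0.45. Id2, at -3.19, had neighbours with a median of 0.33, and Tgfb1, at 3.26, had neighbours with a median of -0.03.

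**Figure D4:**
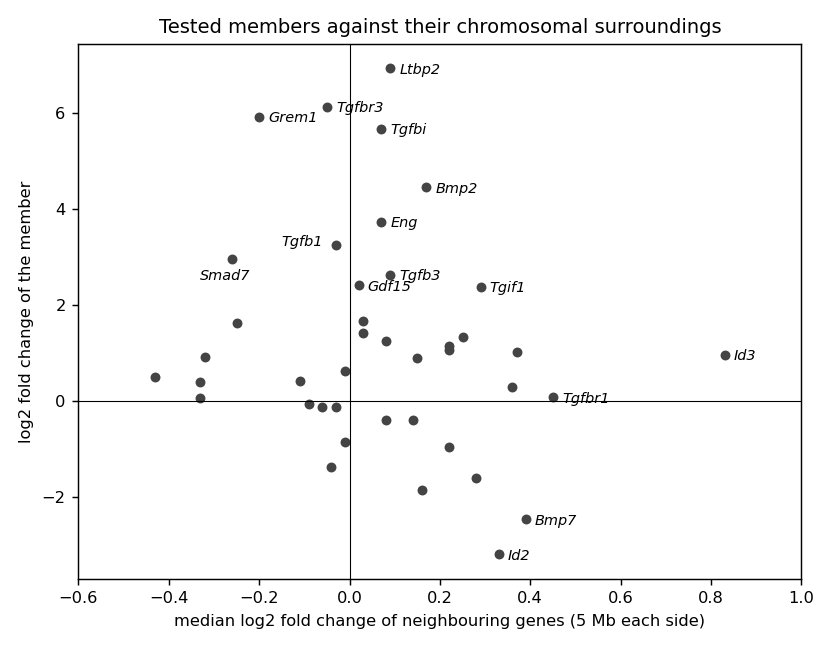
Log2 fold change of each of the 41 tested members (vertical axis, ATRX KO minus ATRX WT) against the median log2 fold change of the genes within 5 Mb of it (horizontal axis), 1 point per member. Id3 stands alone at the right, with a neighbour median of 0.83 close to its own 0.97, while all other members have neighbour medians between -0.43 and 0.45.

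The other genes of the pathway were described from a list of 104, of which 69 had a row and 67 were tested. Of these 37 rose and 23 fell, 89.6% called against 89.5% of all tested genes, and 7 were not called. Their median log2 fold change was 0.62. By the test against log2 1, 27 rose and 7 fell, 50.7% together against 32.6% of all tested genes. The filter weighs on this share, since 63 of the 67 had a mean log2 RPKM of 0 or more in ATRX KO and 58 in ATRX WT. Of the 19 transcription targets tested 13 rose, 5 fell and 1 was not called, and the median was 2.39. Of that list 94.7% was called, with 68.4% rising and 26.3% falling, where 43.6% of all tested genes rose and 45.9% fell. The filter weighs on that list, since 18 of its genes had a mean log2 RPKM of 0 or more in ATRX KO and 13 in ATRX WT. Fn1 (fibronectin) rose by 6.13, and Snai1, a repressor of epithelial genes, by 6.32. Cdkn2b, the p15 inhibitor of G1 kinases, was read 3505 times in the ATRX KO libraries and never in the ATRX WT libraries, and was at least 1783-fold higher in ATRX KO when 3 reads over all ATRX WT libraries are taken as the floor. The two-sided exact 95% interval of that ratio, which covers counting error only, begins at 1449. Hey1, a target shared with Notch signalling, fell by 7.78, Id4 by 1.65 and the matrix protein Tnc by 0.29. The fall of Tnc was larger under other scalings and reached 0.64 with quantile normalization.

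In ligand storage, activation and antagonism 11 of 18 tested genes rose, 6 fell and 1 was not called, and the median was 0.99. That is 94.4% called, near the 89.5% of all tested genes, with 61.1% rising where 43.6% of all tested genes did. The TGF-beta activator Thbs1 rose by 5.24 and Fstl1 by 2.85. The proteoglycan Dcn, which binds TGF-beta and is also counted among the mesenchymal markers, rose by 8.40 on 3303 reads over the ATRX KO libraries and 8 over the ATRX WT libraries. The BMP antagonist Chrdl1 fell by 5.01, the BMP-binding protein Bmper by 3.71, and the integrin subunit Itgb8, which frees latent TGF-beta in brain, by 3.09. On the log2(RPKM + 1) scale Dcn rose by 4.35, Chrdl1 fell by 3.2 and Bmper fell by 2.38. In the same libraries the mesenchymal markers were higher and the neural stem cell and neuronal markers lower in sum, by the values and counts given above, and their part in these differences was not tested. Intracellular regulators stood nearer to 0, with 9 rises, 10 falls and 5 genes without a call of 24 and a median of -0.00. Of them 79.2% were called, beside 89.5% of all tested genes. Zfyve9 (SARA), which presents Smad2 and Smad3 to the receptor, rose by 1.74, the repressor Ski by 1.38 and the ligase Wwp2 by 1.08. Ldlrad4 and Pmepa1, membrane proteins that limit TGF-beta signalling and are induced by it, fell by 1.91 and 1.39, and the kinase Map3k7 (TAK1) fell by 0.65.

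Few other ligands and receptors had a row. Bmp1, the protease that cuts Chrd and procollagens, rose by 0.84, and Inha, the inhibin alpha subunit, fell by 1.16, or by 0.65 with quantile normalization. Of the receptors and co-receptors 3 of 4 tested rose, the BMP co-receptor Rgma and the netrin and RGM receptor Neo1 each by 1.57 and the endocytic receptor Lrp1 by 2.25, and Rgmb fell by 0.44. The 4 tested were all called, where 89.5% of all tested genes were.

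**Figure D5:**
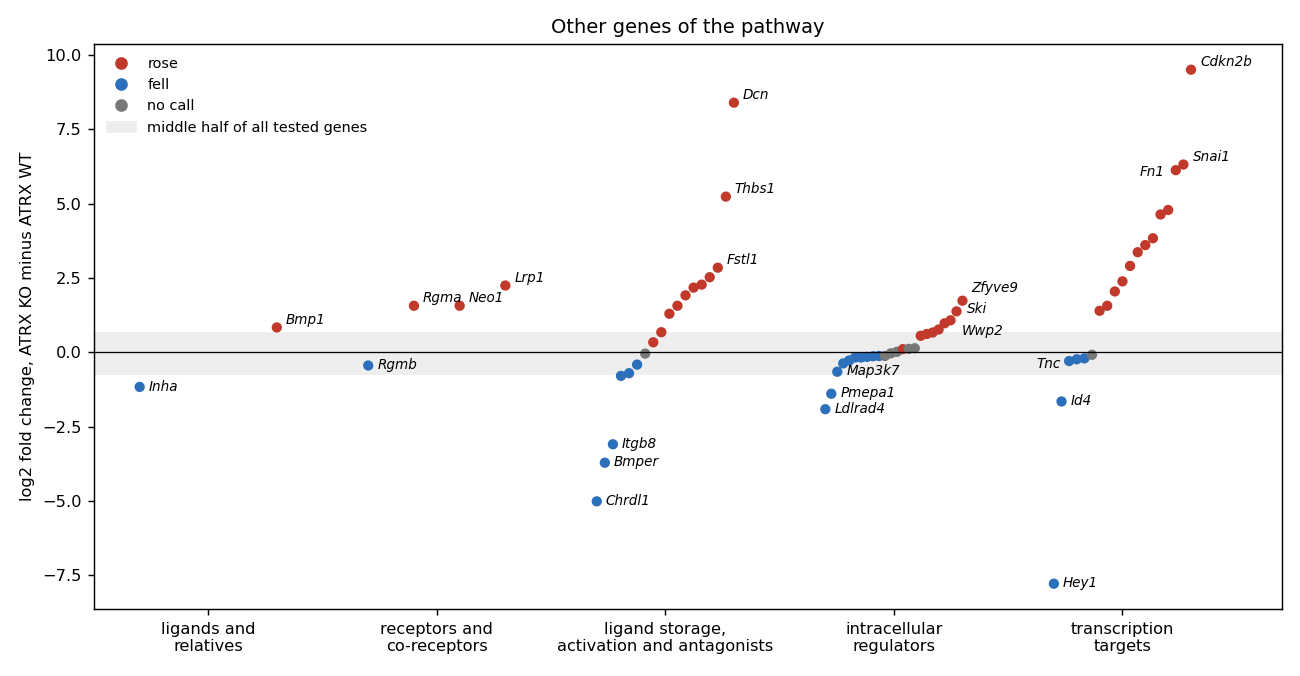
Log2 fold change, ATRX KO minus ATRX WT, of the 67 tested genes in 5 lists of other pathway genes, 1 point per gene in order of value within each list, red where the gene rose, blue where it fell and grey without a call, with the interquartile range of all tested genes as a grey band. Transcription targets reach furthest, with Hey1 at -7.78 and most others above 1, while the intracellular regulators lie between -1.91 and 1.74; the value plotted for Cdkn2b rests on 0 reads in ATRX WT and depends on the prior count.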

How the data were processed

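The values are log2 RPKM as deposited, in 1 table of 13069 genes and 6 columns, made from stranded mRNA libraries sequenced from both ends at 42 nt. The authors used STAR 2.5.3a, HTSeq 0.11.2, edgeR 3.20.9, Trim Galore and FastQC, and name both mm9 and mm10, per the submitters' processing notes. The role of each build, the strand setting and the filter on low genes are not given in the sources used here. Whole reads were recovered from the steps of the deposited log2 values for 100% of genes (tolerance 1e-04 reads), with a prior count that averaged 2 reads, and were used for read numbers, floors and 1 alternative scaling. RPKM is 2 to the power of the deposited value. The authors' library sizes behind these values were 0.932 to 0.935 times the reads in the table in ATRX KO. In ATRX WT they were 1.068 to 1.073 times the reads. The term library size means these sizes, which carry a scaling that differs by genotype and are not plain read totals. Linear models were fitted to the log2 values by limma 3.58.1 (R 4.3.3) for the 12201 genes past the filter, with genotype as the only term and a mean-variance trend. P-values are two-sided and adjusted by Benjamini and Hochberg's method over every tested gene. The recovery and the fit were tested on simulated data. Positions come from GENCODE M21 (GRCm38) by symbol.

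Library titles give 1 line code per genotype, so p-values measure the spread between libraries of 1 line, which may be technical. Levels in every library are given for members past the threshold with a log2 difference of at least 1 and a higher group at log2 RPKM 1 or more, and for the SMAD and Id genes whatever their result. Of the other pathway genes the 3 largest rises and falls per list were named, by the same level and with groups that do not overlap. The members and lists were chosen with earlier results of these data known. Alternatives changed the filter, the scale, the scaling between libraries, the variance model, the replicate block and each library in turn.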

Additional observations from a re-analysis of the deposited data

How the results depend on the processing

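Over 13 alternatives the members counted as higher in ATRX KO numbered 25 to 30 and those counted as lower 9 to 14, beside 27 and 10, and by the test against log2 1 they numbered 14 to 18 and 4 to 6, beside 16 and 5. Tgfbr1 and Smad2 turned from higher to lower, at log2 differences of -0.12 and -0.13, when library size was taken as the reads in the table. That scaling moved the median of all genes by -0.20 and gave 4388 genes higher and 6689 lower, beside 5321 and 5604. Of the other member values, 513 kept their side of the threshold, 8 gained a call and 7 lost one, and the 7 lost were all of Acvr1b. On the log2(RPKM + 1) scale 8 called members moved by more than 1.5 times, Inhbb, Bmp5, Ltbp2, Fst, Grem1, Tgfbr3, Eng and Smad7, all closer to 0, as adding 1 to low levels does by construction. Quantile normalization moved 6 by that much, Bmp5, Fst, Bambi, Tgfbr2, Acvr1b and Smad4, and the cause was not tested. With no filter all 46 members were tested, and 30 rose and 12 fell, 91.3% beside 89.5% of all 13069 genes. Leaving out any 1 library gave 27 to 28 members higher and 9 to 10 lower. The replicate block gave 27 higher and 9 lower and, of the members, changed the call of Acvr1b (limma adjusted p = 0.068). Same-numbered libraries did not deviate together, with correlations across genes of -0.05, 0.05 and -0.04. No pairing by number was seen in the values, which cannot show how the libraries were handled. Depth limits Gdf10, Ltbp2 and Smad9, which have 3, 6 and 8 reads in their lower genotype.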
